A study of Mus musculus with 59 samples.

Results

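The genes described here are 10 heat shock protein genes, Hspa1a, Hspa1b, Hspa8, Hsph1, Dnajb1, Hsp90aa1, Hsp90ab1, Hspb1, Hspd1 and Hspe1, taken by their symbols from the 55341 genes of the count tables and followed in the brown adipose tissue (BAT) of 59 mice. All 10 were found in each of the 3 tables, and all 10 were abundant enough to be tested in each experiment. The study asked which genes respond to thyroid hormone (TH) in this tissue. All mice were males of the C57BL/6J background aged 8 to 12 weeks. In the TH experiment, mice of 2 genotypes were fed propylthiouracil (PTU), which blocks thyroid hormone synthesis, and the controls of each genotype received PTU alone. BAT of wild-type (WT) mice was taken from 4 such controls and from 4 mice at each of 3, 6, 12 and 24 h after an injection of TH, and BAT of BATKO mice from 5 controls and from 5 mice 24 h after TH. In the temperature experiment, mice were kept at 30 °C (4 CTRL and 5 BATKO) or exposed to 4 °C for 24 h (3 CTRL and 4 BATKO). In the diet experiment, mice received chow (4 CTRL and 2 BATKO) or a high-fat diet (HFD) for 3.5 days (4 CTRL and 3 BATKO). The labels do not explain the genotype name BATKO and give neither a changed gene, nor a Cre driver, nor the alleles of CTRL mice, so no targeted gene could be checked. The mice set against BATKO mice are labelled wild-type in the TH experiment and CTRL in the others.

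Heat shock proteins are molecular chaperones, which bind unfolded proteins, keep them from clumping and help them to reach or regain their shape. Under stress, heat shock factor 1 (HSF1) binds repeated nGAAn elements in the promoters of many of these genes and raises their transcription, whereas others, such as Hspa8 and Hsp90ab1, are also made in large amounts in unstressed cells. The proteins work in relays, in which a client passes from J-domain proteins to HSP70 and from there to HSP90, the chaperone of steroid receptors and many kinases. Hspd1 and Hspe1 are listed with the cytosolic proteins here, but their products are known as the chaperonin HSP60 and its lid HSP10 of the mitochondrial matrix, and they are described apart. BAT burns fuel in its many mitochondria to make heat, and TH and cold are both known to activate it.

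The total count was between 7805938 and 14615534 for WT mice of the TH experiment, 13593987 and 18073627 for its BATKO mice, 8008348 and 12887313 in the temperature experiment, and 7612059 and 11533900 in the diet experiment. All 8 brown adipocyte markers examined were counted in every mouse. The summed CPM (counts relative to the library total scaled by edgeR's TMM factor) of 8 skeletal muscle markers went from 0.719 to 8287. BATKO mouse 17 at 30 °C had the highest value. The number of genes detected was 18386 to 20257 in WT mice and 21517 to 22711 in BATKO mice of the TH experiment. As a check for duplicated libraries, counts of mice sharing a group were compared, and all pairs differed by more than sampling noise, with a chi-square per degree of freedom of at least 6.81 over 91 such pairs. In whole tissue, a change in the share of a cell type cannot be told apart from a change of RNA per cell. Values below are normalized counts, meaning counts scaled within each experiment by edgeR's TMM factors to a common library size, and are listed from the lowest to the highest mouse. A gene was said to rise or fall when the quasi-likelihood test of edgeR gave an adjusted p under 0.05 over all genes tested in the same fit, and errors of log2 fold changes are SE.

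How far the counts belong to a single gene differed among the 10. Stretches of 50 bases of the gene's exons that also occur in another gene made up 60.4% of Hspa1a and 62.3% of Hspa1b, which are near copies of each other, 50.1% of Hspb1, 47.5% of Hsp90aa1, 39.7% of Hspd1, 37.0% of Hspa8 and 18.4% of Hspe1. The share was 3.44% in Hsp90ab1, 0.412% in Dnajb1 and 0% in Hsph1, whose counts are thus the least open to exchange with copies. Of the 13 genes that share such stretches with Hspa8, 12 are annotated as pseudogenes, as are all 9 of Hspd1 and all 4 of Hsp90aa1. The 13 shared stretches of Dnajb1 occur in 533 other genes, of which 12 are pseudogenes. In GRCm38, Hspa1a lies at chr17:34969190-34972156 on the minus strand and shares 2225 bases with Gm20481 on the opposite strand, so that without knowledge of the strand setting their reads cannot be told apart. Hspa1b lies 9.95 kb away at chr17:34956436-34959238, also on the minus strand. Hspd1 (chr1:55077835-55088243, minus strand) and Hspe1 (chr1:55088132-55091307, plus strand) are annotated head to head and share 112 bases. The other positions are chr9:40800984-40810087 (plus) for Hspa8, chr5:149614287-149636376 (minus) for Hsph1, chr8:83608193-83612653 (plus) for Dnajb1, chr12:110690605-110702728 (minus) for Hsp90aa1, chr17:45567775-45573271 (minus) for Hsp90ab1 and chr5:135887919-135889563 (plus) for Hspb1.

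The promoters of 7 of the 10 genes were in the RefSeq sequence table (build GRCm38.p6), those of Hspa8, Hsp90aa1 and Hsp90ab1 being missing from it. They were searched, on both strands and over the 250 bases before each annotated start, for pairs of inverted nGAAn units, GAANNTTC or TTCNNGAA, which are part of the element that HSF1 binds as a trimer, made of 3 or more such units. A match lay in the windows of Hspa1a, Hspa1b, Hsph1, Hspb1, Hspe1 and Hspd1 and in none of Dnajb1, whereas GAANNTTC was present in 6.69% and TTCNNGAA in 7.17% of all 32851 promoters of the table. A run of 3 inverted units, in which GAANNTTC and TTCNNGAA share a unit, was in 0.466% of all promoters and, among the 7 genes, in the windows of Hspe1 and Hspd1. A match is a description of the letters and does not show a bound site. The last 120 bases before the start are printed 5′ to 3′ for the genes with a match that the results turn on, with the matched letters in capitals. They are chr17:34972157-34972276 (minus strand) for Hspa1a, chr17:34959239-34959358 (minus) for Hspa1b, chr5:149636316-149636435 (minus) for 1 of the 2 annotated starts of Hsph1, chr5:135887799-135887918 (plus) for Hspb1 and chr1:55088028-55088147 (plus) for Hspe1.
Hspa1a: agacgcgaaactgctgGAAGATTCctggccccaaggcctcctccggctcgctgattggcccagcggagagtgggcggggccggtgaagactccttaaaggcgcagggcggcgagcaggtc
Hspa1b: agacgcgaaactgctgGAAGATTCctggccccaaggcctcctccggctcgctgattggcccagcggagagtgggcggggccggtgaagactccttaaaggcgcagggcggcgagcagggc
Hsph1: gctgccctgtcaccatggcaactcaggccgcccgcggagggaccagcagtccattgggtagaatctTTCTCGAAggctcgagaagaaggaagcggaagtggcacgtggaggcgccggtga
Hspb1: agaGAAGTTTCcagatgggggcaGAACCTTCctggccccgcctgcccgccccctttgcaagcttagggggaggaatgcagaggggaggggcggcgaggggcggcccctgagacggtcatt
Hspe1: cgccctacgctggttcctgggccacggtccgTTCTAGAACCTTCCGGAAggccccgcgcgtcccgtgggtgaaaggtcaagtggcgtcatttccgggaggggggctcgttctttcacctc
Hspa1a and Hspa1b carry the same GAANNTTC match, whose last base is 97 bases before the start, and their windows of 250 bases differ at 3 positions. Hsph1 has 1 TTCNNGAA match, 47 bases before the start shown. The window of Hspb1 holds 2 GAANNTTC matches, 110 and 90 bases before the start. In Hspe1 the matches overlap into longer runs of at least 3 units, found in 0.466% of all promoters, and the same bases lie within a window of Hspd1, its neighbour on the other strand. The DR4 element of thyroid hormone receptors, searched as 2 AGGTCA half-sites in the same orientation with 4 bases between them, was in none of the members' windows and in 0.0152% of all promoters.

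On a per-length scale (CPM per kilobase of exon), Hsp90ab1 had the highest mean of the 10 genes in each of the 15 groups. The inducible pair Hspa1a and Hspa1b had the lowest means in the PTU-fed controls of both genotypes. Counts were divided by the full exon length, so the order also depends on how reads from shared stretches were counted, which was not tested. On PTU, Hspa8 was at 6.26 in WT and 51.1 ± 9.35 in BATKO mice (SD, n = 5), and Hsp90aa1 at 2.05 and 16.4 ± 2.24. In PTU-fed WT controls, Hsp90ab1 was at 90.7 ± 11.1 CPM per kilobase (SD, n = 4), Hspe1 at 68.7 ± 6.75, Hspd1 at 20.8 ± 2.02 and Hspb1 at 12.2 ± 3.30. These 4 genes did not overlap between neighbours in the order. Dnajb1 followed at 7.78 ± 2.23 and Hspa8 at 6.26 ± 1.95 CPM per kilobase, and these overlapped between mice, Dnajb1 also with Hspb1. The lowest levels were 2.05 ± 0.296 for Hsp90aa1, 1.69 ± 0.928 for Hsph1, 1.42 ± 1.80 for Hspa1b and 0.90 ± 1.07 for Hspa1a, whose ranges overlapped with their neighbours. In chow-fed CTRL mice the pair was higher in the order, with Hspa1b at 13.2 ± 7.97 and Hspa1a at 11.4 ± 5.80 CPM per kilobase, ranges that both overlapped with that of Dnajb1, while only Hspa1b reached the range of Hspa8.

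In WT mice after TH, none of the 10 passed the test at 3 h, Hspa8 alone rose at 6 h and 12 h, and at 24 h Hsph1, Hspb1, Hsp90ab1, Hspa8, Hsp90aa1 and Hspd1 were all higher than in PTU-fed controls. No member fell by this test. The 4 time points share the same 4 control mice, so the comparisons are not independent of each other, and the time points were not tested against each other. The background grew over time as well. Of all 13003 genes tested, 9.19% were called 3 h after TH. At 6 h it was 23% (12.1% upward), and at 12 h 25.7% (13.6% upward). At 24 h 32.7% of genes were called, with 17.2% of all genes upward. At 3 h the count of 0 members came from edgeR. At an unadjusted p under 0.05 there were 4 members, against 24.9% of all genes, and DESeq2 called 2, against 10.8%. At 24 h the median log2 fold change of the 10 members was 0.98, against 0.01 over all genes tested. This median depended on mouse B28 of the 24 h group, without which the changes of Hspa1a and Hspa1b were below 0, as given below.

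Hspa8, the constitutive HSP70 of the cytosol, was the one member called by edgeR at 6 h and at 12 h. PTU-fed WT mice had 246, 287, 383 and 492.9 normalized counts, the mice at 3 h had 279, 456, 897 and 925, and those at 6 h had 492, 580.5, 659 and 793. After 12 h of TH the values were 663, 911, 937 and 1192, and after 24 h they were 555, 595, 706 and 776. All mice at 12 h and 24 h were above all controls, whereas the lowest mice at 3 h and 6 h were within the control range. The log2 fold change at 3 h was 0.84 ± 0.29 (adjusted p = 0.0738). It was 0.82 ± 0.29 (adjusted p = 0.0446) for the 6 h group, 1.40 ± 0.29 (adjusted p = 0.00119) for the 12 h group and 0.90 ± 0.29 (adjusted p = 0.0223) for the 24 h group. The call at 6 h was lost in 10 of the 20 fits that left out 1 mouse, with adjusted p between 0.015 and 0.14. The counts of the 11 genes that each hold over 1% of the 50-base stretches of Hspa8 summed to 125 ± 39.1 (SD, n = 4) in the controls, 383 ± 38.8 in the 12 h group and 278 ± 51.7 in the 24 h group, and their part in the result was not tested. Groups that do not overlap in the upward direction were found for 13.4% of all genes at 12 h and 15.4% at 24 h.

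Hsph1 encodes HSP110, which exchanges the nucleotide of HSP70. It had 104, 116, 133 and 293 normalized counts in PTU-fed WT mice and 206, 326, 511 and 873 at 24 h, and 1 control, mouse B5, overlapped with the treated mice. At 24 h it had risen by 1.58 ± 0.45 (adjusted p = 0.0105) on the log2 scale. Earlier, the 3 h mice had 176, 178, 432 and 539, the 6 h mice 203, 230.2, 233 and 297 and the 12 h mice 187, 283, 307 and 677. The changes at these times did not pass the test, with log2 fold changes of 1.03 ± 0.45, 0.57 ± 0.46 and 1.18 ± 0.46 and adjusted p = 0.159, 0.388 and 0.063.

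The stress-inducible HSP70 pair, Hspa1a and Hspa1b, was low in most WT mice and high in single mice. Hspa1a had 8.04, 12.0, 23.2 and 96.7 normalized counts in PTU-fed mice, 11.5, 23.2, 26.2 and 231 in the 12 h group and 7.49, 16.6, 26.4 and 507 in the 24 h group. Hspa1b had 13.1, 15.5, 29.0 and 151 in the controls, 17.3, 21.1, 35.4 and 292 after 12 h of TH and 15.6, 18.7, 42.7 and 777 after 24 h. The highest value of each group came from the same mouse for both genes, B5 among the controls, B23 at 12 h and B28 at 24 h, and none of the other 3 mice at 24 h was above the highest control. The log2 fold change at 24 h was 2.04 ± 1.00 (adjusted p = 0.125) for Hspa1a and 2.07 ± 1.01 (adjusted p = 0.124) for Hspa1b. Without mouse B28 it became -1.03 for Hspa1a and -1.02 for Hspa1b, again not called. The 3 h mice had 6.88, 7.28, 10.8 and 15.5 for Hspa1a and 13.2, 16.6, 17.7 and 38.1 for Hspa1b. The 6 h mice had 4.38, 8.47, 15.3 and 17.3 for Hspa1a and 10.5, 13.3, 15.5 and 26.5 for Hspa1b, and no mouse of either group was as high as B5.

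Dnajb1, the J-domain protein HSP40 that hands clients to HSP70, did not pass the test at any time. Its values were 257, 261, 330.3 and 457 normalized counts in PTU-fed WT mice, 269, 325, 506 and 804 after 12 h of TH and 268, 439, 533 and 1025 after 24 h, where the log2 fold change was 0.79 ± 0.33 (adjusted p = 0.0738). B23 and B28 were again the highest mice of their groups, and the lowest treated mice were within the control range. At 3 h and 6 h its log2 fold changes were 0.06 ± 0.34 and 0.11 ± 0.34.

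The HSP90 genes were both higher at 24 h. Hsp90ab1, the constitutive form, had 2984, 3563, 3661 and 4042 normalized counts in PTU-fed WT mice and 5069.7, 6139, 8497 and 10015 at 24 h, without overlap. The rise was 1.06 ± 0.20 (adjusted p = 0.000319) on the log2 scale, and it was called in each of the 20 fits that left out 1 mouse. The 3 h mice, with 4088, 4404, 5822 and 7207, and the 6 h mice, with 4149, 4569.7, 5012 and 5361, were also above all controls, while the log2 fold changes of 0.57 ± 0.20 and 0.40 ± 0.20 had adjusted p = 0.0691 and 0.14. Such an upward separation was seen for 9.42% of all genes at 3 h, 14.5% at 6 h and 15.4% at 24 h. Hsp90aa1, the inducible form, had 89.6, 96.4, 115 and 122 in controls and 132, 139, 208 and 286 at 24 h, again without overlap, with a log2 fold change of 0.87 ± 0.33 (adjusted p = 0.0489). This call was lost in 13 of the 20 fits that left out a mouse, and without B28 the log2 fold change of Hsp90aa1 was 0.61 with adjusted p = 0.195. The 3 genes that share the most sequence with Hsp90aa1 summed to 149 ± 40.1 normalized counts (SD) in controls and 247 ± 71.8 at 24 h. These sums overlapped between the groups, and the part of the 3 genes in the call was not tested.

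Hspb1, the small heat shock protein HSP25 that holds unfolded proteins and binds actin filaments, had the largest rise among the 6 called genes at 24 h, close to that of Hsph1. It had 138, 141, 150.2 and 231 normalized counts in PTU-fed WT mice and 281, 325, 649 and 731 at 24 h. These groups did not overlap, as for 15.4% of all genes in the upward direction. The log2 fold change was 1.59 ± 0.34 (adjusted p = 0.00108). The 3 h values of 139.6, 228, 396 and 398, the 6 h values of 173, 212, 234 and 288 and the 12 h values of 114, 134, 145 and 278 overlapped with those of the controls, and none of these times passed the test. The 2 genes that share stretches with Hspb1, one of them the pseudogene Hsp25-ps1, summed to 224 ± 34.7 normalized counts in controls (SD, n = 4) and 569 ± 245 at 24 h, without overlap between the groups. How far reads were exchanged between Hspb1 and them was not tested. Small heat shock proteins are abundant in muscle, and the summed skeletal muscle markers were 65.1 to 659 CPM in controls and 265 to 1155 CPM at 24 h, with 0 of 8 markers called and none at 0 in every mouse. Mouse B28, with the highest Hspb1 of the group, had 765 CPM of muscle markers, and the part of muscle in the result was not tested.

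Of the mitochondrial pair, Hspd1 had 619, 741, 742 and 779.8 normalized counts in PTU-fed WT mice and 817, 819, 886 and 1029 at 24 h, while Hspe1 had 1171, 1268, 1417 and 1450.0 in the controls and 1500.2, 1560.5, 1581 and 1994 at 24 h. Neither gene overlapped between the groups, an upward separation found for 15.4% of all genes. The log2 fold changes were small, 0.30 ± 0.11 (adjusted p = 0.0464) for Hspd1 and 0.32 ± 0.19 (adjusted p = 0.208) for Hspe1. The call of Hspd1 was lost in 12 of the 20 fits that left out 1 mouse. Neither gene passed the test before 24 h, where the log2 fold changes were between -0.18 and 0.22. The 3 genes that share the most sequence with Hspd1 summed to 1459 ± 255 normalized counts (SD) in controls and 1778 ± 250 at 24 h, with overlap. For Hspe1, the 3 such genes summed to 516 ± 55.0 and 709 ± 102, without overlap. The part of these genes in the results was not tested.

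The number of members called at 24 h depended on single mice. Without B28, Hsp90ab1 (0.88, adjusted p = 0.00196) and Hspb1 (1.35, adjusted p = 0.00613) were the 2 members still called by edgeR. The log2 fold changes of the others without B28 were 1.13 for Hsph1 (adjusted p = 0.0647), 0.81 for Hspa8 (adjusted p = 0.0592) and 0.23 for Hspd1 (adjusted p = 0.162). Without control mouse B2, 3 members were called, Hsp90ab1 (0.97, adjusted p = 0.00201), Hspb1 (1.51, adjusted p = 0.00523) and Hsph1 (1.49, adjusted p = 0.0331). The plot of normalized counts by mouse in the TH experiment shows B28 at the top of the 24 h group for most of the genes.

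**Figure D1:**
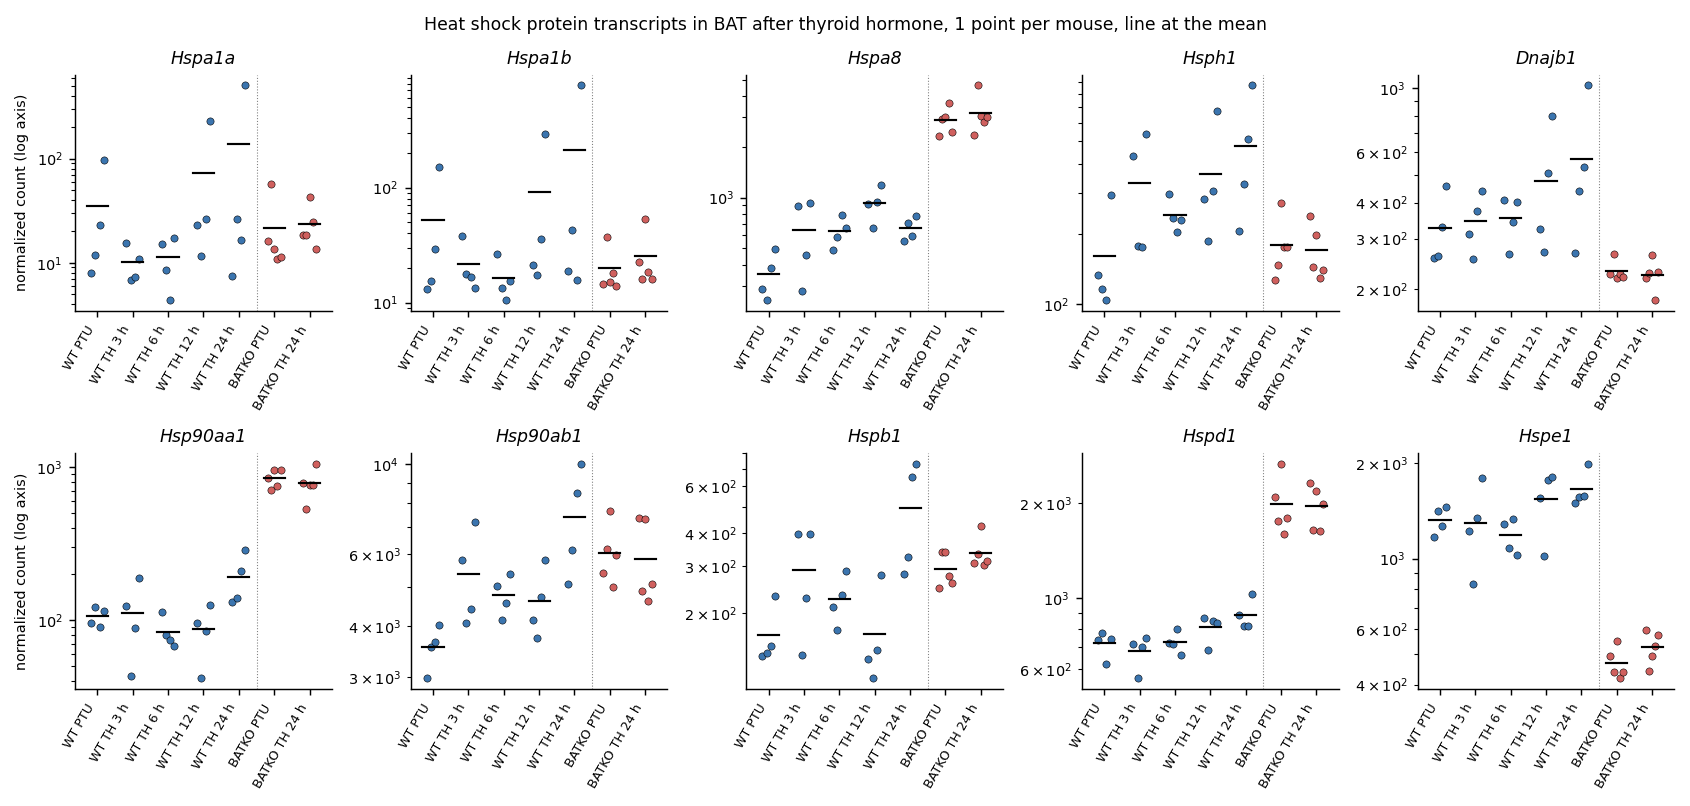
Normalized counts (log axis) of the 10 heat shock protein genes in the TH experiment, 1 panel per gene and 1 point per mouse, for WT mice on PTU and 3, 6, 12 and 24 h after TH and for BATKO mice on PTU and 24 h after TH, with lines at the group means. Hsp90ab1 and Hspb1 separate the WT groups at 24 h and on PTU, as do 15.4% of all genes upward. For Hspa1a and Hspa1b 1 mouse at 24 h stands far above the other 3, and the BATKO groups overlap for all 10 genes.

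Partners of these chaperones were also called at 24 h in WT mice, and their counts stand against 17.2% of all genes rising and 15.5% falling. Of 12 tested cochaperones of HSP90, 7 rose and none fell, among them Fkbp4 (2.24 on the log2 scale, adjusted p = 8.3e-09), which docks steroid receptors on HSP90, and Ahsa1 (1.19), which stimulates its ATPase. Of 8 subunits of the cytosolic chaperonin TRiC, which folds actin and tubulin, 5 rose, with Cct7 at 0.65 and Cct5 at 0.48, and none fell. Of 14 cochaperones of HSP70, 4 rose, among them Dnaja4 (1.07) and Bag3 (0.79), and St13 fell (-0.52). Of 5 further small heat shock proteins, Hspb6 (1.58) and Cryab (1.01) rose. Hsf1 itself rose by 0.85 (adjusted p = 0.0019), and Hsbp1, whose product binds and restrains HSF1, fell (-0.55), out of 4 genes on the list of heat shock factors. Of 7 other members of the HSP70 and HSP110 families, Hspa4l rose (1.21) and 2 fell, of which Hspa12a changed most (-1.47). Of 11 other chaperones and proteases of the mitochondria, 5 rose, with Dnaja3 at 0.76, and Clpx fell (-0.38). At the earlier times 1, 5 and 4 of the 12 HSP90 cochaperones had risen at 3, 6 and 12 h, against 5.1%, 12.1% and 13.6% of all genes, Fkbp4 by 0.60 at 3 h and by 1.18 at 12 h.

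In BATKO mice no heat shock protein gene passed the test 24 h after TH. The count of members called was 0 of 10 by edgeR, 0 at an unadjusted p under 0.05 and 0 by DESeq2. The background was 0% as well, since none of the 14178 genes tested was called, and 673 of them (4.75%) had an unadjusted p under 0.05. Hsp90ab1 had 4992, 5410.2, 5996, 6178 and 7659 normalized counts in PTU-fed BATKO mice and 4604, 4888, 5092, 7329 and 7363 after TH. Hspb1 had 249, 259, 277, 339 and 340.3 on PTU and 303, 309, 316, 335 and 424 after TH, and Hsph1 had 127, 147, 175, 175 and 272 on PTU and 129, 140.1, 144, 197 and 238 after TH. The groups overlapped for all 10 genes, where 0.289% of all genes were separated upward and 0.43% downward. Log2 fold changes were between -0.12 and 0.34 for the 10, and intervals of 1.96 SE were -0.40 to 0.30 for Hsp90ab1, -0.30 to 0.71 for Hspb1 and -0.80 to 0.65 for Hsph1. Hspa1a had 10.9, 11.2, 13.4, 16.3 and 56.7 normalized counts on PTU and 13.7, 18.6, 18.6, 24.8 and 43.2 after TH, so that no BATKO mouse came near the level of B28.

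The difference between the responses of the genotypes was tested as an interaction over all 30 mice. The response was smaller in BATKO mice for Hsp90ab1, with a difference of -1.11 ± 0.27 (adjusted p = 0.00661) on the log2 scale, for Hspb1 (-1.39 ± 0.39, adjusted p = 0.0184) and for Hsph1 (-1.67 ± 0.55, adjusted p = 0.0445). PTU-fed BATKO mice were already above PTU-fed WT mice without overlap for Hsp90ab1 and Hspb1, as for 31.5% of all genes, while for Hsph1 these groups overlapped. How far this difference in level bears on the smaller response was not tested. The labels do not say whether the libraries of both genotypes were prepared together, so genotype cannot be told apart from preparation. The calls were 3 of the 10 members, against 12.3% of all 14178 genes called in either direction and 7.15% in this one. The difference was below 0 for all 10, with a median of -1.05 against -0.02 over all genes. The WT changes of Hspa1a and Hspa1b were below 0 without mouse B28, so the shared sign and the median depend on that mouse. For Hspa8 (-0.76 ± 0.36, adjusted p = 0.173), Hsp90aa1 (-0.99 ± 0.39, adjusted p = 0.0879) and the other 5 it did not pass the test. Without mouse B28, Hsp90ab1 kept its call (-0.93, adjusted p = 0.0225), while Hspb1 (-1.15, adjusted p = 0.0576) and Hsph1 (-1.20, adjusted p = 0.148) did not. Among the partners, 4 of 12 HSP90 cochaperones had a smaller response in BATKO mice, led by Fkbp4 (-2.03, adjusted p = 3.9e-05) and Ahsa1 (-1.21), and so had Hsf1 (-0.80, adjusted p = 0.021).

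Irrespective of TH, some of the genes had a different level in all BATKO mice of the TH experiment than in all WT mice, and on PTU alone Hsp90ab1 and Hspb1 were separated as well. Hspa8 was at 353 ± 109.8 normalized counts (SD, n = 4) in PTU-fed WT mice and at 2879 ± 527 (n = 5) in PTU-fed BATKO mice, Hsp90aa1 at 106 ± 15.3 and 846 ± 115, and Hspd1 at 720.5 ± 69.9 and 1979 ± 420.2. Hspe1 went the other way, from 1327 ± 130.4 to 467 ± 52.8. The 10 BATKO mice lay above all 20 WT mice for Hspa8, Hsp90aa1 and Hspd1, as did 19.5% of all genes, and below them for Hspe1, as did 14.5%. Between the PTU-fed groups alone, 28.3% of all genes were separated downward, Hspe1 among them. No test was made, because more genes were detected in the BATKO libraries. The labels do not say whether the libraries of both genotypes were prepared together, so genotype cannot be told apart from preparation.

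For Hspa8, Hsp90aa1 and Hsp90ab1, the genes that share their sequence were also higher in PTU-fed BATKO than in PTU-fed WT mice. As copies of a member, only genes that hold over 1% of its 50-base stretches were counted. The 11 copies of Hspa8 summed to 125 ± 39.1 normalized counts in PTU-fed WT mice and 5436 ± 968 in PTU-fed BATKO mice, and the 3 copies of Hsp90aa1 to 149 ± 40.1 and 1008 ± 164. For the 3 copies of Hspe1, the sums were 516 ± 55.0 and 492 ± 89.6, and for the 3 copies of Hspd1 1459 ± 255 and 1750.3 ± 417. The count of Hspe1 relative to Hspd1, genes that encode partners of 1 complex, was 1.85 ± 0.204 in PTU-fed WT mice and 0.240 ± 0.0212 in PTU-fed BATKO mice. In the temperature experiment this ratio was 2.89 ± 0.122 in CTRL and 4.65 ± 2.73 in BATKO mice at 30 °C, and on chow 4.52 ± 0.235 and 4.01 ± 0.367. How the reads were shared out between genes and copies in the libraries of each experiment and genotype was not tested.

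**Figure D2:**
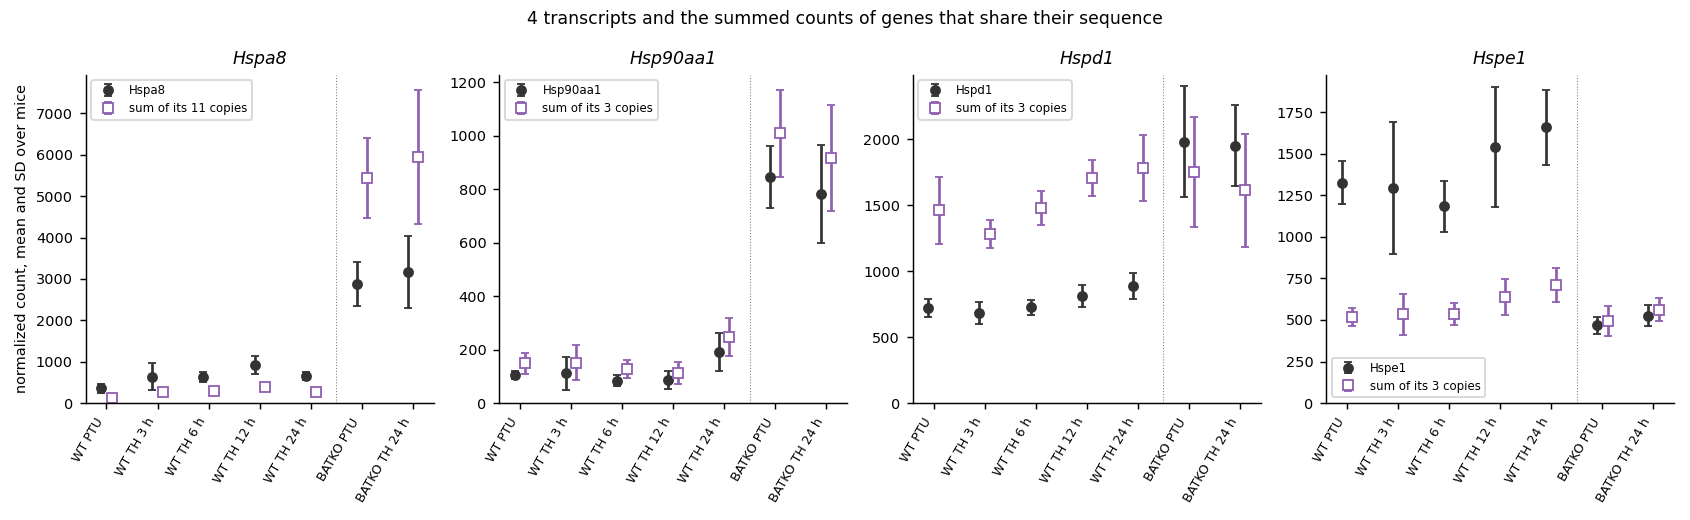
Mean normalized count (linear axis, bars ± SD over mice) of Hspa8, Hsp90aa1, Hspd1 and Hspe1 (filled circles) and of the summed genes that share their sequence (open squares) in the 7 groups of the TH experiment, with WT groups of 4 mice left of the dotted line and BATKO groups of 5 mice right of it. Hspa8 and its 11 copies are both higher in BATKO mice, the copies on PTU at 5436 against 125, whereas Hspe1 is lower and its copies lie at 492 against 516.

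In the cold, the constitutive Hspa8 and the mitochondrial Hspe1 rose in CTRL mice, the inducible Hspa1a and Hspa1b fell, and the other 6 members did not pass the test. These counts of 2 of 10 in each direction were not above the background, where 49.1% of all 13267 genes tested were called, 26.5% rising and 22.6% falling. In BATKO mice Hspa8, Hspe1 and Hsph1 rose and none fell, with 40.3% of all genes called in either direction and 21.4% upward. Blood markers summed to 177 to 333 CPM at 30 °C and 766 to 1711 CPM at 4 °C in CTRL mice, and to 182 to 494 and 771 to 1111 CPM in BATKO mice, with 3 of 5 markers called upward in each genotype. None of the 5 was called downward, and the part of blood in the results was not tested.

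Hspa8 had 508, 580.1, 634 and 767 normalized counts in CTRL mice at 30 °C and 1442, 1620.2 and 2573 at 4 °C. BATKO mice had 500.4, 578, 653, 821 and 1033 at 30 °C and 1028, 1416, 1509 and 1648 at 4 °C. The CTRL groups did not overlap, and the lowest BATKO mouse in the cold was just below the highest at 30 °C. The log2 fold change was 1.59 ± 0.25 (adjusted p = 6.8e-05) in CTRL and 0.97 ± 0.22 (adjusted p = 0.00228) in BATKO mice. Hspe1 had 791, 799.7, 846 and 1004 in CTRL mice at 30 °C and 1839, 1868 and 1975 at 4 °C. In BATKO mice it had 665, 716, 719.8, 728 and 936 at 30 °C and 1098, 1614, 1635 and 1742 at 4 °C. It was higher in each mouse in the cold than in any mouse of its genotype at 30 °C, by 1.14 ± 0.16 (adjusted p = 2.1e-05) in CTRL and 1.02 ± 0.14 (adjusted p = 3.4e-05) in BATKO mice on the log2 scale. Upward separation was found for 26.7% of all genes in CTRL and 16.8% in BATKO mice. From 30 °C to 4 °C, the 3 copies of Hspe1 summed to 418 ± 39.5 and 983 ± 196 (SD) in CTRL mice and to 416 ± 49.0 and 784 ± 248 in BATKO mice. The 11 copies of Hspa8 summed to 144 ± 54.6 and 141 ± 86.8 in CTRL mice and to 98.5 ± 40.9 and 183 ± 87.3 in BATKO mice. The part of the copies in the results was not tested.

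Hspd1, whose product forms the barrel that HSP10 closes, did not pass the test. Its values were 259, 286, 302 and 346 normalized counts at 30 °C and 157, 378 and 529 at 4 °C in CTRL mice. In BATKO mice they were 79.6, 119, 242, 246 and 350.0 at 30 °C and 236, 272, 439 and 516 at 4 °C. The spread in the cold was wide, and the log2 fold changes were 0.25 ± 0.43 (adjusted p = 0.649) in CTRL and 0.82 ± 0.38 (adjusted p = 0.0944) in BATKO mice.

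Hspa1a had 13.9, 84.4, 150.0 and 340.2 normalized counts in CTRL mice at 30 °C and 7.36, 12.8 and 16.0 at 4 °C. Hspa1b had 23.4, 47.8, 161 and 395 at 30 °C and 12.0, 14.7 and 42.0 at 4 °C. For both genes the lowest mouse at 30 °C was as low as mice in the cold, and mouse 22 was the highest at 30 °C. Hspa1a fell by 3.59 ± 1.12 on the log2 scale (adjusted p = 0.0143). Hspa1b fell by 2.74 ± 0.90 (adjusted p = 0.0189), and the sum of the pair, which does not depend on how reads were split between them, changed by -3.10 with adjusted p = 0.0139. The calls did not survive every omission. Without CTRL mouse 1 at 4 °C, neither gene was called (-3.36 with adjusted p = 0.0553 for Hspa1a and -2.53 with adjusted p = 0.0688 for Hspa1b), without CTRL mouse 2 at 4 °C Hspa1b was lost (-2.45, adjusted p = 0.0753), and without CTRL mouse 22 at 30 °C Hspa1b was at -1.75 with adjusted p = 0.0845. The summed CPM of 10 immediate early genes, which are known to respond to many stimuli within minutes, went from 957 to 3605 at 30 °C to 258 to 541 at 4 °C, and 7 of the 10 fell, against 22.6% of all genes, Egr1 by 3.64 and Jun by 2.49 on the log2 scale. The muscle markers summed to 0.719 to 4673 and 139 to 641 CPM, with 0 of 8 called. The part of either in the fall of the pair was not tested.

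In BATKO mice the pair did not pass the test in the cold. Hspa1a had 25.6, 46.4, 48.4, 80.6 and 369 normalized counts at 30 °C and 28.3, 75.8, 90.0 and 171 at 4 °C. Hspa1b had 40.9, 42.3, 50.1, 56.9 and 201 at 30 °C and 35.3, 75.7, 109 and 143 at 4 °C. The groups overlapped over most of their range, and the log2 fold changes were -0.34 ± 0.77 (adjusted p = 0.751) for Hspa1a and 0.20 ± 0.68 (adjusted p = 0.835) for Hspa1b. The difference between the genotypes in the cold response was 3.25 ± 1.35 (adjusted p = 0.205) for Hspa1a and 2.94 ± 1.12 (adjusted p = 0.166) for Hspa1b on the log2 scale, and it did not pass the test for any member (0 of 10 by edgeR and by DESeq2, with 1.12% of all genes called by edgeR, and 2 of 10 at an unadjusted p under 0.05, against 18.6% of all genes). Immediate early genes summed to 1105 to 2364 CPM at 30 °C and 216 to 835 at 4 °C in BATKO mice.

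Hsph1 had 62.4, 63.5, 65.6, 112 and 212 normalized counts in BATKO mice at 30 °C and 169, 264, 299 and 389 at 4 °C, a rise of 1.43 ± 0.44 (adjusted p = 0.0157) on the log2 scale. Only mouse 17, the highest at 30 °C, overlapped with the mice in the cold. Without mouse 11 at 4 °C the change of Hsph1 was 1.21 with adjusted p = 0.0571, and without the mice over 1000 CPM of muscle markers 1.45 with adjusted p = 0.0602. In CTRL mice the values of Hsph1 were 58.1, 61.7, 149 and 238 at 30 °C and 155, 277 and 351 at 4 °C, with a log2 fold change of 1.05 ± 0.50 (adjusted p = 0.0886). Without mouse 22 at 30 °C it was 1.53 with adjusted p = 0.0195.

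The remaining members did not pass the test in the cold. Hspb1 had 125, 185, 188 and 203 normalized counts at 30 °C and 247, 263 and 362 at 4 °C in CTRL mice, without overlap, as for 26.7% of all genes. Its log2 fold change was 0.73 ± 0.40 (adjusted p = 0.141). In BATKO mice it had 104, 129.6, 188, 244 and 465.9 at 30 °C and 117, 241, 244 and 288 at 4 °C, with mouse 17 again at the top. Dnajb1 had 295, 343, 431 and 551 at 30 °C and 248, 277 and 301 at 4 °C in CTRL mice (-0.56 ± 0.28, adjusted p = 0.104). In the same groups Hsp90ab1 had 6230.3, 6447, 6936 and 8490.1 at 30 °C and 7653, 8379 and 9398 at 4 °C, overlapping (0.27 ± 0.19, adjusted p = 0.254). In BATKO mice Dnajb1 ranged from 223 to 505 and Hsp90ab1 from 4788 to 9801 over both temperatures. Hsp90aa1 was low throughout, at 11.1 to 76.5 normalized counts over the 16 mice.

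**Figure D3:**
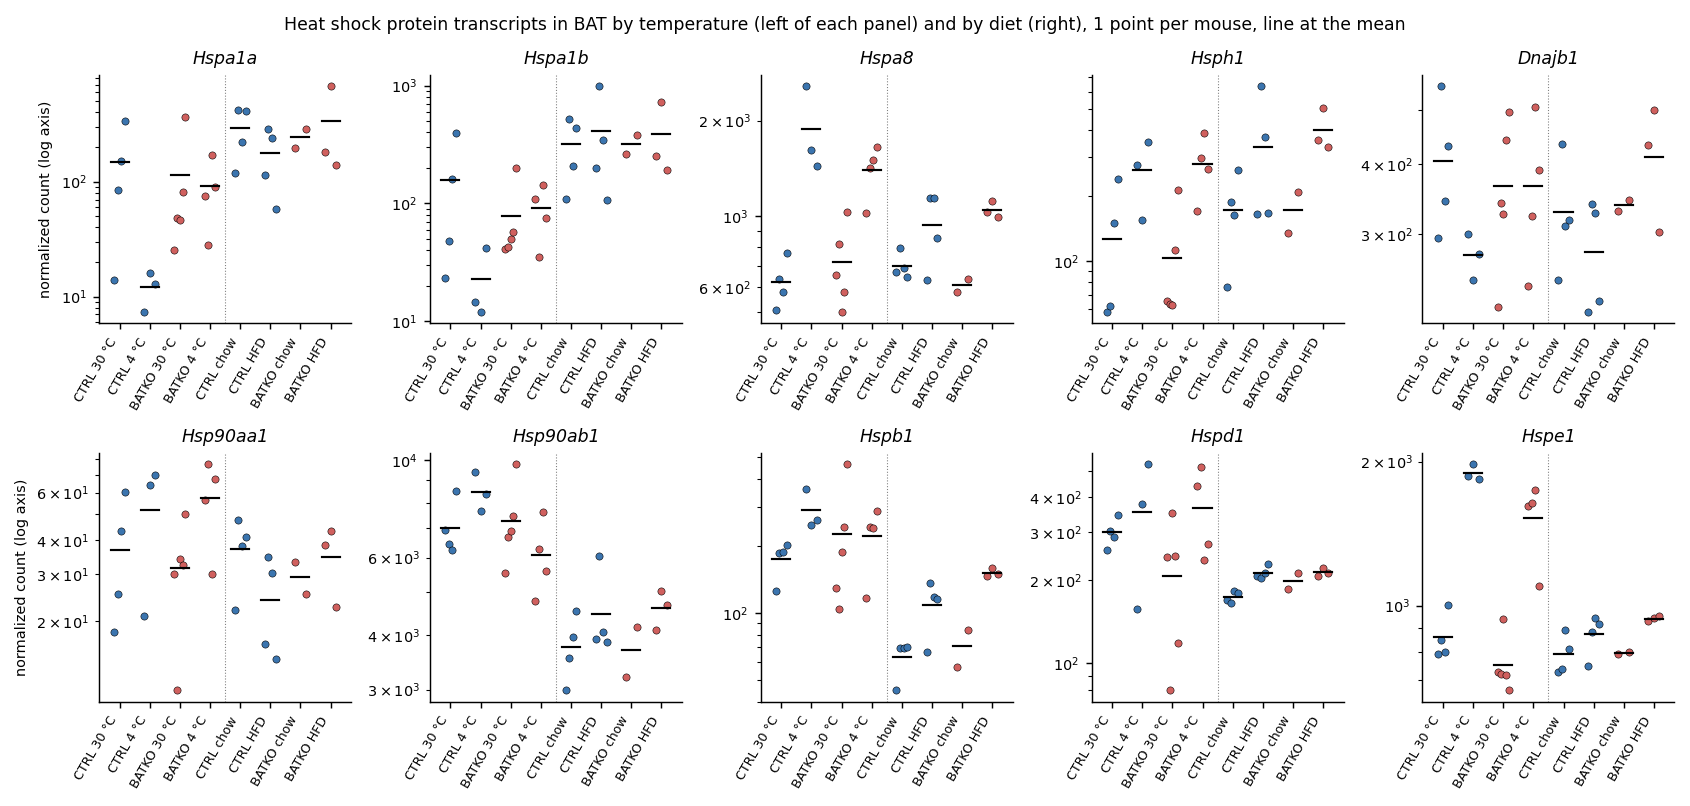
Normalized counts (log axis) of the 10 genes, 1 panel per gene and 1 point per mouse, in CTRL and BATKO mice at 30 °C and 4 °C (left of the dotted line) and on chow and HFD (right), normalized separately in the 2 experiments, with lines at the group means. Hspe1 is higher in the cold in both genotypes without overlap, as are 26.7% of all genes in CTRL and 16.8% in BATKO mice. Hspa1a in CTRL mice spans 13.9 to 340.2 at 30 °C and 7.36 to 16.0 at 4 °C, and on HFD and chow CTRL mice overlap for 9 of the 10 genes.

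Partners of these chaperones were also called in the cold, and their counts stand against 26.5% of all genes rising and 22.6% falling in CTRL and 21.4% rising in BATKO mice. In CTRL mice, 8 of 11 other mitochondrial chaperones and proteases rose and none fell, led by Dnaja3 (1.89) and Grpel1 (1.77), cochaperones of the mitochondrial HSP70. The ER chaperones rose in 7 of 12 cases, with Manf at 2.28 and Sdf2l1 at 2.01, and Pdia4 fell (-1.08). Of 12 HSP90 cochaperones 6 rose, Ahsa1 by 1.16, and of 8 TRiC subunits 4 rose, Cct3 by 1.23, with none falling on either list. Of 14 HSP70 cochaperones 5 rose, led by Hspbp1 (1.51), and 2 fell, Dnajc7 (-0.55) and Dnajb4 (-0.50). Among 5 further small heat shock proteins, Hspb8 rose (2.77), and Cryab (-2.47) and Hspb2 (-2.16), both abundant in muscle, fell. None of the 4 genes on the list of heat shock factors was called. In BATKO mice 7 of 12 HSP90 cochaperones, 6 of 12 ER chaperones and 7 of 11 mitochondrial genes rose, and the cold response was smaller than in CTRL mice for Fkbp4 (-0.93, adjusted p = 0.033) and Dnaja3 (-0.91, adjusted p = 0.043).

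Between genotypes at the same temperature, no member was called. At 4 °C the count was 0 of 10 by edgeR and by DESeq2 with 2.16% of all genes called by edgeR, and 3 at an unadjusted p under 0.05, against 16.5% of all genes. Hspa1a was higher in all 4 BATKO mice in the cold than in the 3 CTRL mice, with a log2 difference of 2.91 ± 1.13 (adjusted p = 0.196), an upward separation shared by 6.11% of genes. Hsp90ab1 (-0.48 ± 0.19, adjusted p = 0.211) and Hspe1 (-0.32 ± 0.16, adjusted p = 0.335) were lower in all BATKO mice, as were 7.04% of genes. At 30 °C the count was 0 of 10 by edgeR, by DESeq2 and at an unadjusted p under 0.05. Over all genes the shares were 0.00754% by edgeR and 9.11% at an unadjusted p under 0.05, and DESeq2 called 8 genes. The intervals of the log2 difference were -0.23 to 0.64 for Hspa8 and -1.82 to 1.13 for Hspa1a.

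After high-fat feeding no member passed the test in either genotype. In CTRL mice 0 of 10 were called by edgeR, with 3.94% of 12932 genes called. At an unadjusted p under 0.05 there were 4, against 21.7% of all genes, and DESeq2 called 1, against 6.74%. Hspb1 came closest, with 44.9, 69.8, 69.8 and 70.0 normalized counts on chow and 67.1, 115, 118 and 136 on HFD (0.78 ± 0.21, adjusted p = 0.0536), where 1 HFD mouse was below the 3 higher chow mice. Hspd1 had 166, 169.6, 179 and 183 on chow and 203, 207, 213 and 230.1 on HFD, without overlap (0.29 ± 0.09, adjusted p = 0.0827), a separation found upward for 5.15% of genes. In BATKO mice the count was 0 by edgeR, which called 0.0696% of genes. It was 3 at an unadjusted p under 0.05, against 15.4% of all genes, and 2 by DESeq2, against 1.82%. There Hspb1 had 57.3 and 84.3 in the 2 chow mice and 147, 149 and 159 in the 3 HFD mice (1.10 ± 0.27, adjusted p = 0.117), and Hspa8 had 577 and 637 on chow and 998, 1033 and 1119.7 on HFD (0.79 ± 0.21, adjusted p = 0.126). Hspa8, Hsph1, Hspb1 and Hspe1 were higher in all HFD than in all chow BATKO mice, as were 19.1% of genes in this comparison of 2 with 3 mice.

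Hsph1 spread widely on both diets, with 76.1, 162, 187 and 263 normalized counts on chow and 164, 166, 373 and 639.8 on HFD in CTRL mice (0.97 ± 0.41, adjusted p = 0.19). The inducible pair was high in most mice of this experiment and overlapped between diets. Hspa1a had 119, 221, 412 and 424 on chow and 58.1, 115, 242 and 288 on HFD in CTRL mice. In BATKO mice it had 196 and 289.6 on chow and 139, 183 and 682 on HFD. Hspa1b had 109, 208, 438 and 523 on chow and 107, 199, 347 and 994 on HFD in CTRL mice, and 264 and 381 on chow and 191, 254 and 727 on HFD in BATKO mice. Of the others, Dnajb1 ranged from 218 to 499 normalized counts over the 13 mice, Hsp90aa1 from 14.5 to 47.5, Hsp90ab1 from 2990.2 to 6047 and Hspe1 from 727 to 949.6. In CTRL mice 4 of 10 immediate early genes fell on HFD, against 2.04% of all genes, with Atf3 at -2.45 and Nr4a1 at -2.15, and none of the lists of cochaperones, TRiC, mitochondrial or ER chaperones held a called gene. Genotypes did not differ by the test on either diet, nor did their responses to HFD. All 3 comparisons gave 0 of 10 members and 0% of all genes by edgeR, and 0 members by DESeq2. At an unadjusted p under 0.05, the members were 2 on HFD (5.34% of all genes), 0 on chow (7.92%) and 0 for the response (5.72%). On HFD, Hspb1 was higher in the 3 BATKO than in the 4 CTRL mice (0.48 ± 0.22, adjusted p = 0.884), like 3.35% of all genes. On chow, Hspd1 was higher (0.19 ± 0.11, adjusted p = 0.723) and Hspa8 lower (-0.20 ± 0.20, adjusted p = 0.865) in both BATKO mice than in the 4 CTRL mice, with 9.16% of genes separated upward and 8.58% downward.

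**Figure D4:**
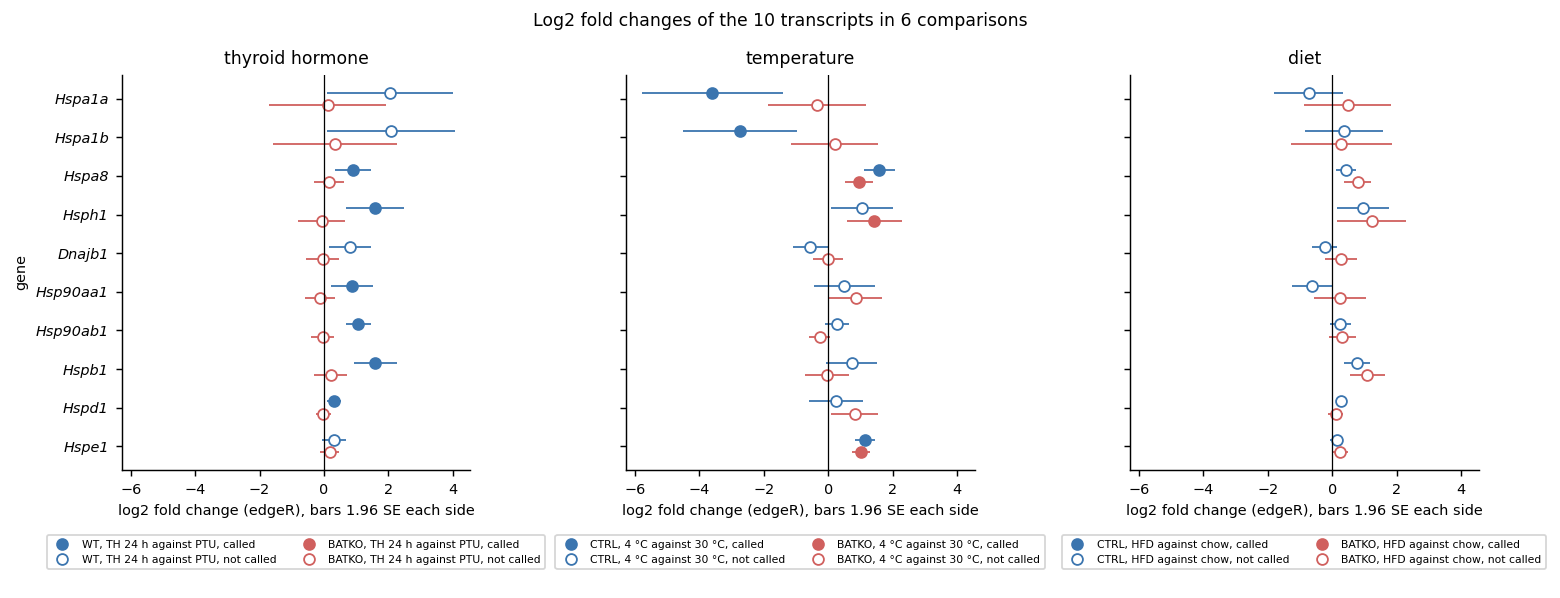
Log2 fold changes of the 10 genes with bars of 1.96 SE for TH at 24 h in WT and BATKO mice, cold in CTRL and BATKO mice, and HFD in CTRL and BATKO mice, with filled points where edgeR gave an adjusted p under 0.05. The WT response to TH lies above 0 for all 10 genes, for Hspa1a and Hspa1b only with mouse B28 included, while the BATKO points lie near 0. Hspa1a and Hspa1b have the widest bars in each panel.

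With each group's mean removed from log2 CPM, Pearson's r over the 59 mice was above 0.5 for 21 of the 45 pairs of members (46.7%) and below 0 for 3 (6.67%), with a median of 0.49. Over all pairs of the 12118 genes tested in each experiment, 1.24% had r above 0.5 and 49.5% had r below 0, and the median was 0.0029. The mice of an experiment share its count table and normalization, and r is given as a description. The highest value was that of Hspa1a with Hspa1b (r = 0.93, Spearman's rho = 0.88), which share long identical stretches, and it was 0.96 within the TH, 0.89 within the temperature and 0.95 within the diet experiment. Hsph1, which shares no 50-base stretch with another gene, followed Hsp90ab1 with r = 0.82 and Hspb1 with r = 0.77. The lowest was -0.29 between Hspa8 and Hspd1, and within the experiments it was -0.74 in the temperature, 0.15 in the TH and -0.03 in the diet experiment.

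A score was formed for each mouse from the deviations of Hspa1a, Hspa1b, Dnajb1, Hsph1, Hsp90aa1 and Hspa8. Among 12108 other genes, the one most like the score over the 59 mice was Dnaja1, a J-domain partner of HSP70 (r = 0.82), followed by Ccdc117 (0.73), Ahsa2 (0.72), Siah2 (0.71), Hsp25-ps1 (0.71), P4ha1 (0.70), Zbtb2 (0.69), Dnajb4 (0.68), Bag3 (0.67) and Uspl1 (0.67). Of these, Dnaja1, Dnajb4 and Bag3 are HSP70 cochaperones, Ahsa2 is related to the activator of HSP90, and Hsp25-ps1 is a pseudogene that shares sequence with Hspb1. By lists, the mean deviation of the HSP70 cochaperones had r = 0.79 with the score and that of the HSP90 cochaperones 0.76, against 0.29 for skeletal muscle markers, 0.28 for immediate early genes, 0.19 for brown adipocyte markers and 0.07 for blood markers.

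**Figure D5:**
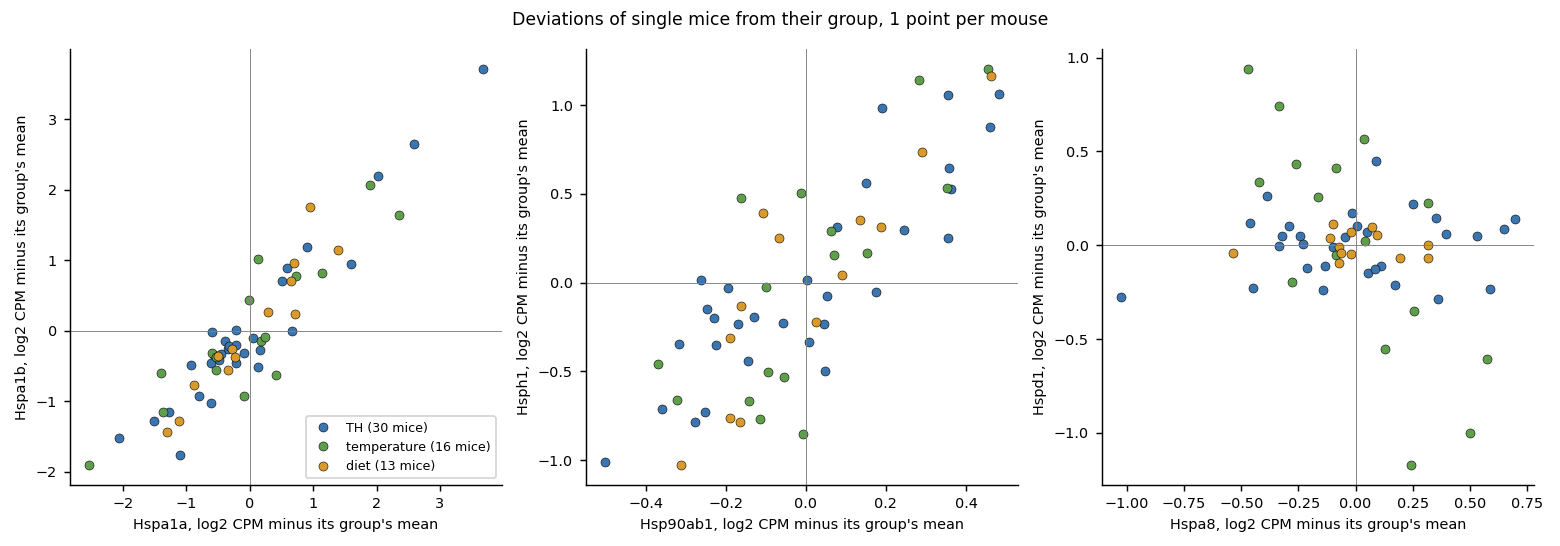
Deviation of each of 59 mice from its group's mean in log2 CPM, with colours for the TH, temperature and diet experiments, for Hspa1b against Hspa1a, Hsph1 against Hsp90ab1 and Hspd1 against Hspa8. The first 2 pairs lie along a rising line (r = 0.93 and 0.82), and in the third the 16 mice of the temperature experiment lie along a falling one (r = -0.74).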

How the data were processed

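RNA had been extracted with Trizol from the BAT of 59 mice, and libraries were made with the Lexogen SENSE total RNA kit and sequenced on a NextSeq 500. The authors deposited raw counts per gene, without normalization, in a table for each of the 3 experiments. The submitters' processing notes name Bowtie2 (version 2.3.2.2), the mm10 genome and DESeq2, while the gene annotation and the strand setting of the counting are not given in the sources used here. Columns were matched to mice by the labels, with 0 left over. The counts carry counting error and the spread between mice, and each mouse was a single library. The p-values set a change against the spread between mice sharing a group, estimated over all groups of the fit.

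The 10 genes and the lists of partners and markers were chosen with earlier results of these data known. Counts were fitted with the quasi-likelihood test and TMM factors of edgeR (version 4.0.16, under R version 4.3.3), over genes with a mean normalized count above 10 in the mice of the fit. The fits held the 20 WT mice for the time course, all 30 mice of the TH experiment for BATKO and the interaction, and the 16 and 13 mice of the temperature and diet experiments. P-values were adjusted by Benjamini-Hochberg over all genes of a fit, with a threshold of 0.05. The F statistic of each test gave the SE of its log2 fold change. All 10 members are named, and of each list of partners at most 2 genes per direction with the largest changes among those called. Deviations between mice used log2 CPM with a prior count of 2, computed from the deposited counts. Positions, exon lengths and shared stretches of 50 bases came from the GENCODE annotation of GRCm38, and promoters from RefSeq. Alternatives were DESeq2 (version 1.42.0), its size factors, no filter, a mean count above 50, fits of other sets of mice, removal of mitochondrial genome genes, and each mouse left out in turn.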

Additional observations from a re-analysis of the deposited data

Results flagged for a closer look

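In 19 of the 120 combinations of a gene and a group of 4 or 5 mice, the highest or lowest mouse stood apart from the others by Dixon's ratio, which sets the gap to the nearest mouse against the whole range. For independent and normally distributed values, about 1 in 20, or 6, would pass the limits used. Normalized counts need not be normally distributed, and members vary together (r = 0.93 for Hspa1a with Hspa1b). The 19 can therefore not be judged against the 6. Mouse B28, 24 h after TH, was high for Hspa1a (ratio 0.962), Hspa1b (0.964) and Hspe1 (0.836). Mouse B23, 12 h after TH, was high for Hspa1a (0.933) and Hspa1b (0.934), and mouse B20 of the same group was low for Hspd1 (0.856). Among PTU-fed WT controls, mouse B5 was high for Hspa1b (0.884), Hsph1 (0.847) and Hspb1 (0.866). PTU-fed BATKO mouse 3 was high for Hspa1a (0.881), Hspa1b (0.823) and Dnajb1 (0.834), and TH-treated BATKO mouse 9 for Hspa1b (0.821) and Hspb1 (0.74). At 30 °C, BATKO mouse 17, which also had the highest sum of muscle markers, was high for Hspa1a (0.84) and Hspa1b (0.9), and BATKO mouse 15 for Hspe1 (0.768). On HFD, CTRL mouse 9 was high for Hsp90ab1 (0.898), and on chow CTRL mouse 1 was low for Hspb1 (0.992). Most of these ratios fell on the genes of the HSP70 and small heat shock protein groups, which share mice with each other.

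Genotypes differed in the log2 response to TH at 24 h, by the interaction test of edgeR, for Hsp90ab1 (-1.11), Hspb1 (-1.39) and Hsph1 (-1.67), in the direction of a smaller response in BATKO mice.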

How the results depend on the processing

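No setting reversed the direction of a called member. Of 4138 log2 fold changes of members recomputed under an alternative, 3901 kept their direction and their side of the threshold, 129 that were not called changed sign and stayed uncalled, 61 lost a call and 47 gained one. Among the counts of members called, 380 stayed within 1.5 times and 35 moved. The numbers of members called were steady for TH at 24 h in WT mice, its interaction with genotype, and both cold comparisons under every alternative of tool, size factors, filter and fit, and moved there only on leaving out mice. With DESeq2 2 members were called at 3 h after TH, 1 for HFD in CTRL and 2 for HFD in BATKO mice, against 10.8%, 6.74% and 1.82% of all genes. Without a filter on low counts there were 4 at 3 h, 2 at 12 h, and 2 and 3 for HFD in CTRL and BATKO mice. Fits of only the groups compared gave 2 at 6 h, 2 at 12 h and 1 for HFD in BATKO mice, the fit of all 30 mice 1 at 3 h and 2 at 12 h, and a mean count above 50 gave 1 for HFD in CTRL mice. The cause was not tested. Shares of all genes are given here for DESeq2 only, so the other counts of members are not set against a background. On leaving out each mouse in turn, the number of members called ranged from 0 to 2 at 3 h, 0 to 1 at 6 h, 1 to 2 at 12 h and 2 to 7 at 24 h, from 1 to 4 for the interaction, from 2 to 4 for cold in CTRL and in BATKO mice, and from 0 to 2 for HFD in CTRL mice. Without the mice over 1000 CPM of muscle markers, an alternative chosen after seeing the data, 5 members were called at 24 h in WT mice and 2 for cold in BATKO mice. No paired analysis was possible because no mouse number occurs in both groups of a comparison within a genotype, and a number found in both genotypes stands for different mice. Depth limits what can be said of Hspa1a and Hspa1b, which had the lowest counts of the members in many mice of the TH experiment.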

Other observations

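Chaperones of the endoplasmic reticulum (ER), which are known as targets of the unfolded protein response, were called in both directions after TH. At 24 h in WT mice, 5 of the 11 tested fell, against 15.5% of all genes, with Dnajb9 at -1.42 and Creld2 at -0.83 on the log2 scale, and Manf rose (1.26). Their difference from the cytosolic genes was not tested. In the cold 7 of 12 rose in CTRL and 6 of 12 in BATKO mice, against 26.5% and 21.4% of all genes. Cirbp, the cold-inducible RNA-binding protein, fell by 1.12 after TH in WT mice and by 0.75 on the log2 scale in CTRL mice at 4 °C, where Rbm3, the other gene of its kind, did not pass the test. Of the brown adipocyte markers, 2 of 8 rose and 5 fell at 24 h after TH in WT mice, and 6 rose and 1 fell in the cold in CTRL mice.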
